A study of Cavia porcellus with 72 samples.

Results

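The effect of antenatal betamethasone on the hippocampal transcriptome was compared between F1, the generation exposed in the womb, and F3, its descendants through the paternal line. The comparison is an interaction: the difference between sGC and control in F3 minus the same difference in F1, for each gene. It used 24 of the 36 RNA libraries of a series of 72 samples, 11 from F1 (6 control and 5 sGC) and 13 from F3 (6 control and 7 sGC), and 11466 genes that were listed in the tables of both generations and passed a filter on low values.

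All animals were female Dunkin-Hartley guinea pigs sampled at postnatal day 40, without a stress test, and each came from a different mother. In the sGC groups, labelled Beta, the pregnant F0 animals had received repeated courses of betamethasone, a synthetic glucocorticoid (sGC) that crosses the placenta. In the control groups they had received the saline vehicle. F3 was reached through F1 and F2 males mated to females that were in no experiment, so neither the F3 animals nor the germ cells they came from were in the womb during treatment. RNA came from the hippocampus as a bulk tissue, so fewer cells of a type and less RNA per cell cannot be told apart.

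Glucocorticoids reach the hippocampus through 2 nuclear receptors, the glucocorticoid receptor NR3C1 and the mineralocorticoid receptor NR3C2, which bind DNA as hormone-activated transcription factors. The hippocampus is rich in both and takes part in the feedback that ends a stress response. Antenatal sGC is given to women at risk of preterm birth to mature the fetal lung, and its effects on the developing brain are the reason for studies of this kind.

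In a fit without the sGC libraries numbered 32 to 36, some genes passed for a difference in response between the generations. Among them were genes of ribosomal proteins and of the respiratory chain, with a higher sGC effect in F3 than in F1. The GABA-synthesis genes GAD2 and GAD1, the cannabinoid receptor CNR1 and the mineralocorticoid receptor NR3C2 had a lower one. In that fit 25 of 52 cytosolic ribosomal protein genes passed with a positive interaction, where 0.556% of all genes did. So did 5 of 60 genes of the respiratory chain and ATP synthase. GAD2, GAD1, CNR1 and NR3C2 passed with a negative interaction, where 0.434% of all genes did. The other 9 interneuron genes counted did not pass, and 4 of them had a positive value. RPL28 then differed by 0.51 ± 0.09 and GAD2 by -0.40 ± 0.07 (SE, log2). With all 24 libraries, which include those of that fit, no gene passed, and the genes that had passed kept the sign of their interaction. The count of genes passing without libraries 32 to 36 fell to 0 when F1 sGC replicate 2 or 3 was also left out. DEF8, chosen for a small p in both generations, was higher in every sGC animal than in every control of its generation. Of all genes 0.113% had no overlap between the groups in either generation, and nothing is read from the separation of DEF8.

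The libraries held 14701892 to 19766726 counts each over the shared genes. Libraries are numbered in their labels, and numbers 32 to 36 stand only on sGC libraries: F1 sGC replicates 4 (35) and 5 (32) and F3 sGC replicates 5 (36) and 6 (34). For these, library number and treatment overlap in part, and no control shares their numbers, so a comparison within them cannot be made. F1 sGC replicate 4 stood apart. Its median distance from the mean of the other libraries of its group was 0.153 on the log2 scale, against 0.0304 to 0.111 in the other 23. F3 sGC replicate 5 stood nearest to its group, at 0.0304.

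The deposited values were not raw counts. Within each generation, 1 weighted sum of the log counts was constant over genes, with an SD of 0.00044 (log2) where counting error alone gives 0.0417 in F1 and 0.042 in F3. One pattern of variation between libraries had thus been removed from each table, separately, before it was deposited. F1 control replicate 6 carried 58.4% of the squared weights in F1 and F3 sGC replicate 5 carried 79.7% in F3, so each of these 2 libraries was nearly fixed by the others of its generation. The weights summed to 0.0098 to 0.01 over the sGC libraries. That sum cannot show whether the removed pattern had held part of the sGC effect, which was not tested. Each generation held 1 independent library fewer than its count. Where all F3 sGC libraries are set against all F3 controls below, replicate 5 is not an independent one. Because the 2 tables had been adjusted separately, levels were never compared between F1 and F3, only the differences within each.

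With all 24 libraries, no gene passed an adjusted p of 0.05 for the interaction (edgeR, 0 of 11466, 0%), 1241 genes had an unadjusted p under 0.05, and the smallest adjusted p was 0.21. DESeq2 called 11 genes on the same values, edgeR's likelihood ratio test 0, and limma with terms for the 2 fixed sums 0. The sGC effect itself passed in 476 genes in F1 (4.15%, 348 higher in sGC) and in 3 in F3 (0.0262%, 2 higher: MARS2 and TSPOAP1 higher, DDX24 lower), and no gene passed in both. With terms for the fixed sums these counts became 206 and 0. The F1 count fell to 186, 284 and 200 without F1 control replicates 1, 2 and 5, and to 260 and 176 without F1 sGC replicates 4 and 5.

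Without libraries 32 to 36, 114 genes passed for the interaction, 64 with a higher value in F3 (0.556% of 11509 tested) and 50 with a lower one (0.434%). The effect in F1 then passed in 49 genes (0.426%) and in F3 in 363 (3.15%, 174 higher). Of the 114 genes, 112 had effects of opposite sign in the 2 generations: 64 were lower in F1 sGC and higher in F3 sGC, and 48 the reverse. In 73 of them both effects had an unadjusted p under 0.05. Genes called for the interaction are more often of opposite sign by the way they are chosen, so nothing is read from these counts. All 114 kept the sign of their interaction with all 24 libraries, where 80 had an unadjusted p under 0.05. Those 24 include the 20 libraries in which the 114 were called, so this is not a separate check. Leaving out F1 sGC replicate 4 alone gave 160 genes, 70 of them among the 114, and raised the F3 count to 655. Leaving out F1 sGC replicate 2 gave 1 gene, and leaving out any of the other 22 libraries alone gave 0.

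The 114 were themselves sensitive to single libraries. Of the 20 libraries kept, 17 moved the count by over 1.5 times when left out. It fell to 0 without F1 sGC replicate 2 or 3, to 34 without F1 control replicate 6, to 39 without F1 control replicate 2, and to 73 without F1 control replicate 4. Among F3 libraries it fell to 39, 43, 39, 38 and 20 without control replicates 1 to 5, and to 57, 8, 15 and 74 without sGC replicates 2, 3, 4 and 7. It rose to 321 without F1 control replicate 3, to 365 without F3 control replicate 6, and to 272 without F3 sGC replicate 1. Only 3 sGC libraries of F1 remained in this fit. DESeq2 called 528 genes on these 20 libraries, the likelihood ratio test 364, and limma 92.

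**Figure D1:**
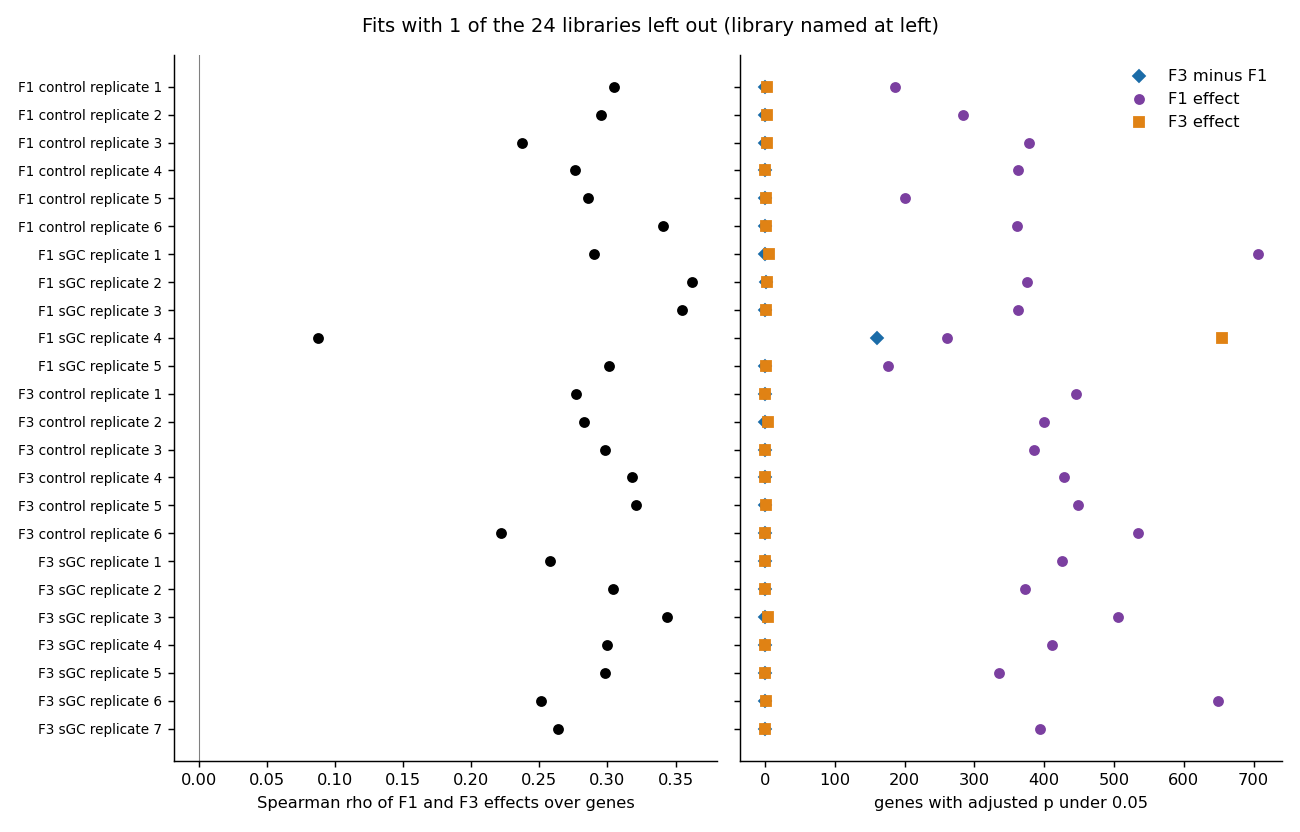
Fits in which 1 of the 24 libraries, named at left, was left out. The left panel gives Spearman's rho between the F1 and F3 effects over all genes, and the right panel the number of genes past an adjusted p of 0.05 for the F1 effect, the F3 effect and their difference; only the fit without F1 sGC replicate 4 has a rho as low as 0.0872 and called 160 genes for the difference and 655 for F3.

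How far the 2 generations changed alike depended on the same libraries. With all 24, the F1 and F3 effects, which share no animal, had Pearson's r of 0.164 and Spearman's rho of 0.293 over genes, which are not independent replicates. Of 644 genes with an unadjusted p under 0.05 in both generations, 601 (93.3%) had the same sign, 348 of them higher and 253 lower in sGC, and 43 had opposite signs. Without libraries 32 to 36, r was -0.0502 and rho -0.00779, and of 385 such genes 197 (51.2%) had the same sign and the rest opposite signs. Without F1 sGC replicate 4 alone, rho was 0.0872 and 69% of 577 genes had the same sign. With any other single library left out, rho stayed between 0.222 and 0.362 and the share between 87.4% and 96.4%. A term for libraries 32 to 36 in the fit called 0 genes itself and gave a rho of 0.192, and of 274 genes with an unadjusted p under 0.05 in both generations 89.1% had the same sign. Whether the shared changes follow the treatment or the library numbers cannot be told apart where sGC alone holds those numbers.

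**Figure D2:**
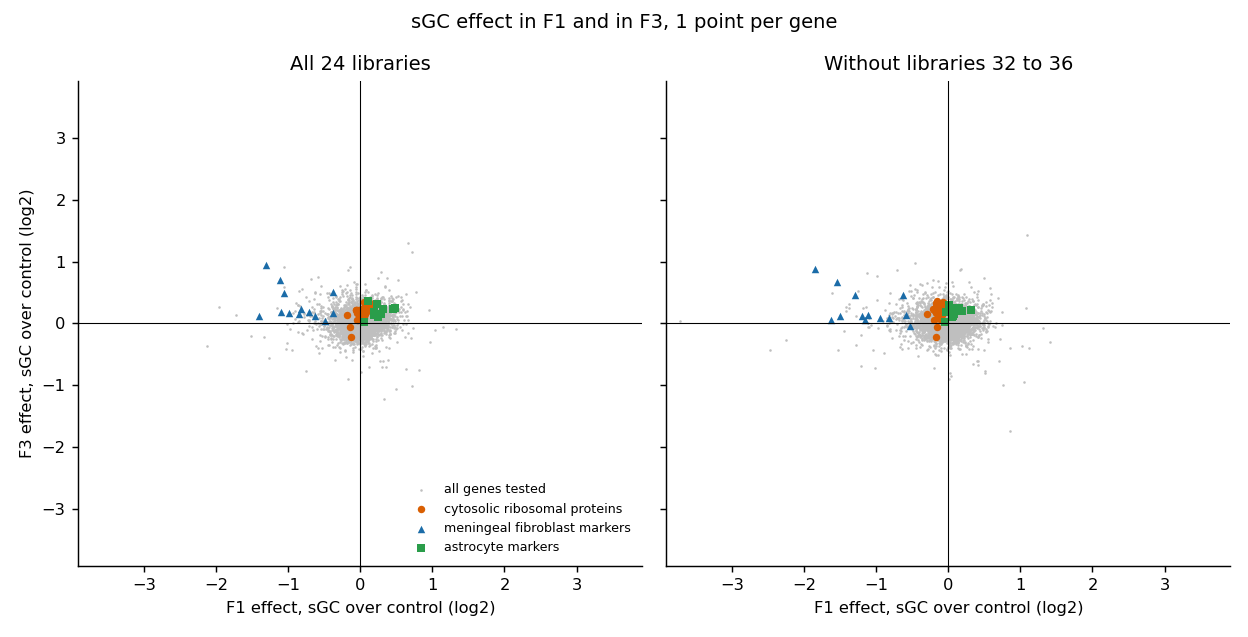
The sGC effect (log2, sGC over control) in F1 on the horizontal axis and in F3 on the vertical axis, 1 point per gene, with all 24 libraries at left and without libraries 32 to 36 at right. Of 52 cytosolic ribosomal protein genes 51 have a larger effect in F3 than in F1 in both panels, and all lie left of 0 in the right one, meningeal fibroblast markers lie to the left near or above 0, and astrocyte markers lie right of and above 0 in the left panel.

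The largest group among the 114 genes was the cytosolic ribosomal proteins, the protein part of the ribosome, whose genes are expressed together in most cells. Of 52 tested, 25 passed for the interaction without libraries 32 to 36 and all 25 had the higher value in F3, where 0.556% of all genes passed in that direction. In that fit their median effect was -0.14 (log2) in F1 and 0.21 in F3, and the median interaction 0.36, against 0.00 over all genes. With all 24 libraries 0 passed, 11 had an unadjusted p under 0.05 in the positive direction (4.74% of all genes) and 0 in the negative, and the median interaction was 0.18. In that fit the median effect was 0.03 in F1 and 0.20 in F3. Every one of the 52 had a negative F1 effect without the 4 libraries and 33 a positive one with them, while 50 had a positive F3 effect in either fit. In F3 itself, 33 of the 52 passed as higher in sGC without libraries 32 to 36, where 1.51% of all genes did, and 0 as lower.

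CPM are counts scaled to the total of a library. The summed level of the 52 genes was 8199 to 9779.7 CPM in the F1 controls. It was 7849, 8038 and 7760.5 CPM in F1 sGC replicates 1 to 3, but 11483 in replicate 4 and 8991 in replicate 5. In F3 it was 7370.5 to 8884 CPM in the controls and 8911 to 10334 in the sGC libraries. All 7 F3 sGC libraries stood above all 6 F3 controls, F1 sGC replicates 1 to 3 below all 6 F1 controls, and replicate 4 above every other library of its generation. The highest F1 control, at 9779.7 CPM, was replicate 6, the library nearly fixed by the others. The summed level of 11 astrocyte markers separated the F3 groups too: it was 10845 to 11905 CPM in F3 control and 12255 to 13597 CPM in F3 sGC, without overlap. F1 control replicate 6 and F1 sGC replicate 4 were the highest of their groups in both sums, while F1 sGC replicates 2 and 3 stood above 5 of the 6 F1 controls for the astrocyte sum and below all 6 for the ribosomal one. The part of the astrocyte markers in the ribosomal result was not tested.

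RPS15 and RPL28, of the small and the large subunit, show the pattern gene by gene. RPS15 stood at 143.5 to 170.2 (median 152) CPM in the 6 F1 controls and at 138, 131, 131, 192 and 150.3 CPM in F1 sGC replicates 1 to 5. The 6 F3 controls held RPS15 at 127 to 148 (median 141) CPM and the 7 F3 sGC libraries at 151 to 178 (median 163) CPM. All 7 F3 sGC libraries lay above the controls of F3, where 2.7% of all genes had no overlap between the groups (0.863% higher and 1.84% lower in sGC), and F1 sGC replicate 4 stood above every other F1 library. The interaction of RPS15 was 0.27 ± 0.10 (SE, log2) with all 24 libraries (adjusted p = 0.36) and 0.43 ± 0.07 without libraries 32 to 36 (adjusted p = 0.017). RPL28 stood at 72.9 to 91.1 (median 75.7) CPM in the 6 F1 controls and at 71.3, 69.0, 71.5, 115 and 80.7 CPM in F1 sGC replicates 1 to 5. RPL28 stood in F3 at 58.9 to 74.6 (median 70.8) CPM in the 6 controls and at 80.3 to 96.6 (median 87.0) CPM in the 7 sGC libraries. RPL28 too did not overlap between the F3 groups, and its interaction of 0.29 ± 0.13 (SE, log2) with all 24 libraries became 0.51 ± 0.09 without libraries 32 to 36 (adjusted p = 0.020). RPS15 and RPL28 were chosen for a small p in these data, so nothing is read from their separation in F3.

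RPL18 and RPL36, the members with the smallest p with all 24 libraries, had interactions of 0.29 ± 0.09 and 0.29 ± 0.10 (log2, SE, adjusted p = 0.34 and 0.34). In the fit without libraries 32 to 36 these were 0.42 ± 0.08 and 0.44 ± 0.08 (adjusted p = 0.023 and 0.017). Rps7, RPS9 and RPL7A had interactions of 0.37, 0.38 and 0.34 in that fit, with adjusted p of 0.017, 0.020 and 0.026. Ribosomal protein genes have many near-identical processed copies in mammalian genomes, and how the reads of such copies were counted is not given in the sources used here, so the level of any single member is uncertain. Ribosomal proteins of the mitochondrion, coded by other genes, had a smaller median: of 65 tested 1, MRPL27, passed without libraries 32 to 36 (0.556% of all genes in that direction), at 0.52 (adjusted p = 0.041), and their median interaction was 0.09. MRPS21 had an interaction of -0.14 (adjusted p = 0.34) with all 24.

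**Figure D3:**
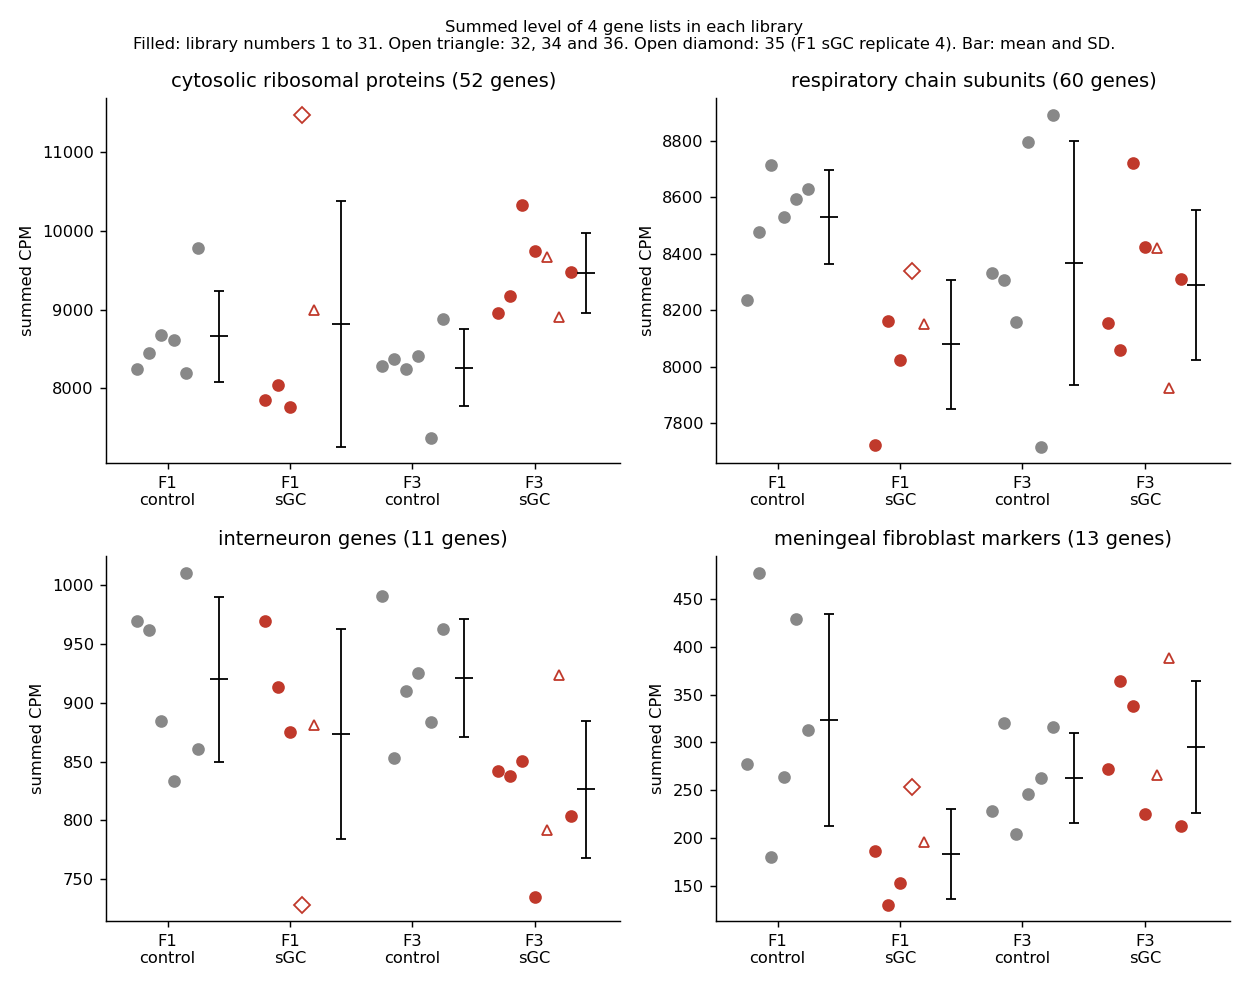
Summed level, in CPM, of 4 gene lists in each of the 24 libraries by group, with the mean and SD beside each group and libraries 32 to 36 as open symbols. F1 sGC replicate 4 (diamond) has the highest ribosomal protein sum and the lowest interneuron sum of F1, while the other F1 sGC libraries have ribosomal sums of 7760.5 to 8991 CPM.

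Genes of the respiratory chain, which carries electrons to oxygen in the inner mitochondrial membrane, were counted in the same way. The list also held ATP synthase genes, whose symbols begin with ATP5. Of 60 tested, 52 had a positive interaction with all 24 libraries and 55 without libraries 32 to 36, with medians of 0.10 and 0.16 (log2). Those with an unadjusted p under 0.05 were 15 and 28, all positive, where 4.74% and 8.59% of all genes were. The 5 that passed without libraries 32 to 36, where 0.556% of all genes passed in that direction, were NDUFC1, NDUFA13, UQCR10, COX6C and COX6A1. The summed level of the 60 genes was 8235 to 8714 CPM in F1 control and 7725 to 8338 in F1 sGC, and 7718 to 8892 and 7927 to 8721 CPM in F3, with overlap in both. The list's median effect was -0.08 in F1 and 0.02 in F3 with all 24.

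NDUFA13, an accessory subunit of complex I, was among the genes with the smallest p in both fits. NDUFA13 stood at 76.8 to 82.6 (median 80.2) CPM in the 6 F1 controls and at 72.9, 69.8, 68.8, 77.0 and 73.6 CPM in F1 sGC replicates 1 to 5. In the 6 F3 controls NDUFA13 stood at 67.4 to 78.6 (median 70.0) CPM and in the 7 F3 sGC libraries at 69.0 to 82.7 (median 79.6) CPM. The highest F1 sGC value lay just above the lowest F1 control, and the F3 groups overlapped. The interaction of NDUFA13 was 0.27 ± 0.06 (SE, log2) with all 24 libraries (adjusted p = 0.21) and 0.33 ± 0.06 without libraries 32 to 36 (adjusted p = 0.020). NDUFC1 of the same complex had 0.51 ± 0.09 (adjusted p = 0.020) without libraries 32 to 36, and NDUFB7 0.24 ± 0.06 with all 24 (adjusted p = 0.21). FDX1, a ferredoxin of mitochondria that passes electrons to steroid-forming enzymes, had 0.54 ± 0.13 with all 24 (adjusted p = 0.21) and 0.56 ± 0.15 without the 4 libraries (adjusted p = 0.063). All 5 F1 sGC values of FDX1 (13.04 to 14.6 CPM) lay below the 6 F1 controls (15.9 to 19.2 CPM), while the F3 groups overlapped. The share of all genes lower in F1 sGC without overlap was not counted, and FDX1 was chosen for a small p, so nothing is read from its separation.

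GAD2 and CNR1 were among the 5 genes with the smallest p and a lower value in F3 with all 24 libraries, and were the leading pair without libraries 32 to 36. GAD2 and GAD1 make GABA, and CNR1, the cannabinoid receptor, is densest on the terminals of one class of hippocampal interneurons. GAD2 stood at 179 to 217 (median 188.1) CPM in the 6 F1 controls and at 226, 214, 215, 183 and 205 CPM in F1 sGC replicates 1 to 5. The 6 F3 controls held GAD2 at 189 to 207 (median 198) CPM and the 7 F3 sGC libraries at 158 to 190.0 (median 174.7) CPM. All F3 sGC values but the highest lay below the lowest F3 control, and the F1 groups overlapped. The interaction of GAD2 was -0.32 ± 0.07 (SE, log2) with all 24 libraries (adjusted p = 0.21) and -0.40 ± 0.07 without libraries 32 to 36 (adjusted p = 0.017).

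CNR1 stood at 149 to 192 (median 166.2) CPM in the 6 F1 controls and at 211, 230.5, 237, 174 and 207 CPM in F1 sGC replicates 1 to 5. CNR1 stood in F3 at 165 to 208 (median 195) CPM in the 6 controls and at 146.7 to 196.3 CPM in the 7 sGC libraries. F1 sGC replicates 1, 2, 3 and 5 lay above the 6 F1 controls and replicate 4 among them. For CNR1 the interaction was -0.49 ± 0.11 (SE, log2, adjusted p = 0.21) and -0.61 ± 0.11 without libraries 32 to 36 (adjusted p = 0.017). GAD1 had -0.38 ± 0.08 in that fit (adjusted p = 0.036). Of 11 interneuron genes counted 2 passed, GAD2 and GAD1, where 0.434% of all genes passed in that direction. The list as a whole did not share this: its median interaction was -0.01 with all 24 and -0.04 without the 4 libraries, with 5 and 4 of 11 positive, and the sign of the former changed in 5 of 35 settings. DESeq2 called GAD2 and CNR1 with all 24 libraries too.

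Receptors of GABA and glutamate and genes of the synaptic vesicle were counted next. Of 11 GABA-A receptor subunits, the chloride channels that GABA opens, 4 had an unadjusted p under 0.05 with a negative interaction and 0 with a positive one with all 24 libraries, where 6.09% of all genes were negative at that level. With the 4 libraries left out there were 6, where 9.21% of all genes were, and all 11 had a negative interaction, though 0 passed adjustment. GABRG1, named for a small interaction p, had all 5 F1 sGC values (20.9 to 23.4 CPM) above its 6 F1 controls (12.05 to 15.2 CPM). Of all genes 2.63% did so, and nothing is read from that separation. The F3 groups of GABRG1 overlapped. Its interaction was -0.62 ± 0.14 (adjusted p = 0.21), and that of GABRA2 -0.27 ± 0.09 (adjusted p = 0.34).

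Of 17 ionotropic glutamate receptor genes, the channels of excitatory synapses, 3 had an unadjusted p under 0.05 with all 24 libraries and 5 without libraries 32 to 36, all negative, where 6.09% and 9.21% of all genes were, and 0 passed. In either fit 5 of the 17 had a positive interaction. GRIA1, an AMPA receptor subunit, had -0.22 ± 0.08 and -0.28 ± 0.07 (adjusted p = 0.36 and 0.052), and GRID1 -0.24 ± 0.07 and -0.19 ± 0.08 (adjusted p = 0.25 and 0.20). Of 19 synaptic vesicle and SNARE genes 3 and 7 had an unadjusted p under 0.05 in the 2 fits, all negative, and 3 and 6 had a positive interaction. The 1 that passed without the 4 libraries, where 0.434% of all genes did in that direction, was SYT1, the calcium sensor of transmitter release, at -0.31 ± 0.07 (adjusted p = 0.046), and VAMP1 had -0.10 (adjusted p = 0.60). The median interactions of the glutamate receptor and vesicle lists were -0.08 and -0.10 with all 24.

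Other genes among the 10 with the smallest p and a lower value in F3 without libraries 32 to 36 were PPFIA2, a liprin of the presynaptic active zone, KCNJ3, a potassium channel opened by G proteins, CADPS, which primes dense-core vesicles, and NEFH, the heavy neurofilament chain. Their interactions were -0.41, -0.29, -0.34 and -0.35, each with an adjusted p of 0.029. KCNJ3, CADPS and NEFH were lower in all 7 F3 sGC libraries than in all 6 F3 controls, as were 1.84% of all genes. These genes were chosen for a small p in these data, so nothing is read from that separation. The microtubule protein MAP9 had -0.35 (adjusted p = 0.026) and ZNF804A, a zinc finger protein, -0.43 (adjusted p = 0.017), both with overlapping groups in F1 and F3. Among the 10 with the smallest p in the other direction, 9 were ribosomal or respiratory chain genes and the other was Sepw1, a small selenoprotein, at 0.38 (adjusted p = 0.020).

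UBQLN2, a shuttle to the proteasome, and HSPA4L, a chaperone of the HSP110 family, were 2 more genes whose groups did not overlap in F3. Both were chosen for a small p too, so nothing is read from that separation. Of all genes 1.84% were lower in F3 sGC without overlap. UBQLN2 stood at 157 to 177 (median 171.4) CPM in the 6 F1 controls and at 180.3, 178, 182, 134 and 182 CPM in F1 sGC replicates 1 to 5. In the 6 F3 controls UBQLN2 stood at 177 to 184 (median 179.6) CPM and in the 7 F3 sGC libraries at 146.2 to 160.4 (median 157) CPM. All 7 F3 sGC values lay below all 6 F3 controls, while in F1 sGC replicate 4 lay below the 6 controls and the other 4 above them. The interaction of UBQLN2 was -0.21 ± 0.07 (SE, log2) with all 24 libraries (adjusted p = 0.34) and -0.28 ± 0.05 without libraries 32 to 36 (adjusted p = 0.017). HSPA4L was 149 to 159 CPM in F3 sGC and 169 to 180.1 CPM in F3 control, with an interaction of -0.24 ± 0.05 (adjusted p = 0.029) without libraries 32 to 36. It was the 1 of 23 chaperones that passed for the interaction, where 0.434% of all genes did in that direction. With all 24 libraries every one of the 23 had a negative effect in F1 and 19 had one in F3, 13 and 16 of them at an unadjusted p under 0.05, where 9.3% and 9.26% of all genes were lower in sGC at that level. After adjustment 2 passed in F1 (1.12% of all genes) and 0 in F3 (0.00872%). With the 4 libraries left out, 1 passed in F1 (0.0695%) and 9 in F3 (1.64%), all lower in sGC. The chaperone list had median effects of -0.11 in F1 and -0.12 in F3 with all 24 libraries, so that its median interaction was -0.02. DNAJC7 had an interaction of 0.25 (adjusted p = 0.49).

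The corticosteroid receptors were named whatever their values and were not tested against each other. NR3C2 stood at 129.5 to 146.004 (median 135) CPM in the 6 F1 controls and at 135, 149, 152, 129.7 and 135 CPM in F1 sGC replicates 1 to 5. The 6 F3 controls held NR3C2 at 142.7 to 148 (median 145) CPM and the 7 F3 sGC libraries at 121 to 138 (median 128.03) CPM. All 7 F3 sGC values of the mineralocorticoid receptor lay below all 6 F3 controls, as in 1.84% of all genes, while the F1 groups overlapped. The interaction of NR3C2 was -0.22 ± 0.06 (SE, log2) with all 24 libraries (adjusted p = 0.21) and -0.28 ± 0.06 without libraries 32 to 36 (adjusted p = 0.041). The effect within F3 was -0.19 ± 0.04 without those libraries (adjusted p = 0.019) and -0.18 ± 0.04 with all 24 (adjusted p = 0.083).

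NR3C1 stood at 89.9 to 99.3 (median 95.03) CPM in the 6 F1 controls and at 107, 101.96, 103, 116 and 101 CPM in F1 sGC replicates 1 to 5. NR3C1 stood in F3 at 96.7 to 106 (median 102.01) CPM in the 6 controls and at 93.2 to 112 (median 108) CPM in the 7 sGC libraries. NR3C1 was higher in F1 sGC by 0.16 ± 0.04 (adjusted p = 0.044 with all 24 libraries, 0.17 without the 4). Every F1 sGC value of NR3C1 lay above every F1 control, as in 2.63% of all genes. The interaction of NR3C1 was -0.10 ± 0.06 with all 24 libraries (adjusted p = 0.56). FKBP5, a co-chaperone of the receptor that glucocorticoids induce, had -0.23 ± 0.14 (adjusted p = 0.59), with overlapping groups in both generations. Without libraries 32 to 36, 1 of the 12 receptor and partner genes, NR3C2, passed, where 0.434% of all genes did in that direction. In that fit NCOA1, a coactivator, came next at -0.21 ± 0.05 (adjusted p = 0.053). With all 24 libraries 0 of the 12 passed, and NCOA1 had -0.14 ± 0.06 (adjusted p = 0.40). Of 12 glucocorticoid target genes 0 passed in either fit (edgeR), with 4 and 2 at an unadjusted p under 0.05, where 10.8% and 17.8% of all genes were. Their median interactions were 0.01 and -0.01, and the sign changed in 6 of 35 settings. DDIT4 and ZBTB16, both induced by glucocorticoids, had 0.29 and -0.23 (adjusted p = 0.34 and 0.35).

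**Figure D4:**
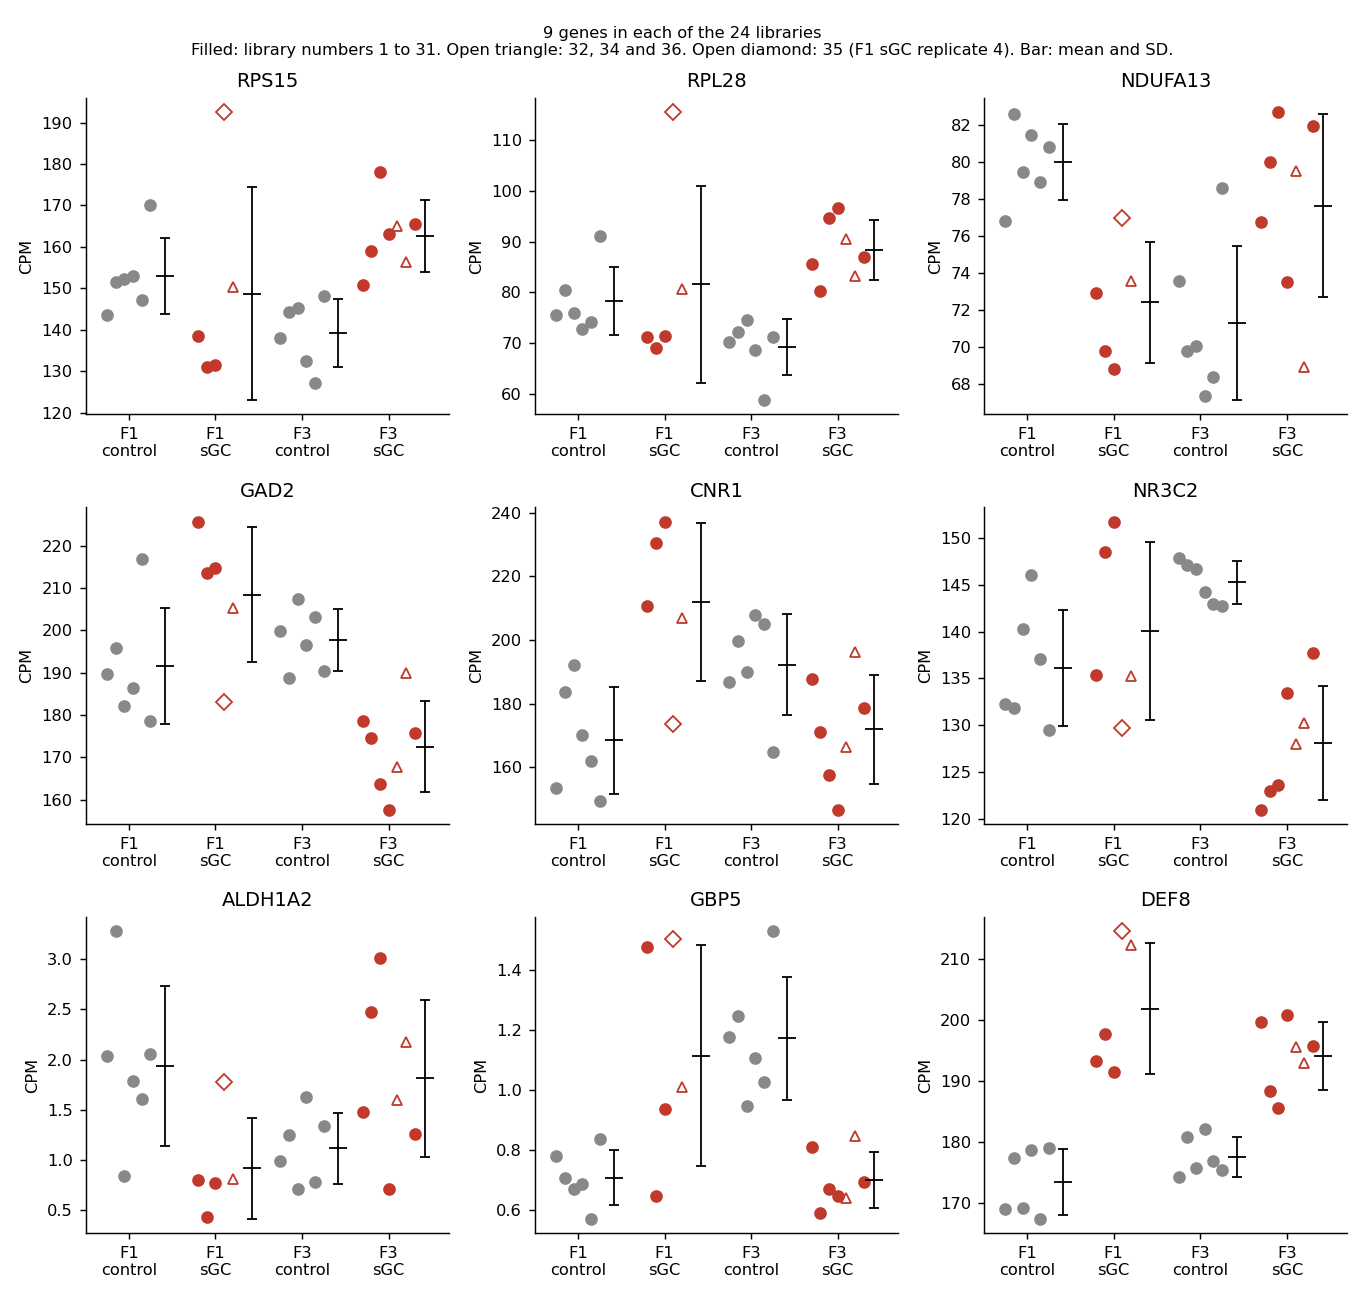
Level in CPM of 9 genes in each of the 24 libraries by group, with the mean and SD beside each group and libraries 32 to 36 as open symbols. RPS15 and RPL28 are higher and GAD2, NR3C2 and GBP5 lower in F3 sGC than in F3 control (GAD2 with 1 library above the lowest control), DEF8 is higher in sGC in both generations, and F1 sGC replicate 4 (diamond) lies far above its group for RPS15 and RPL28.

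Markers of meningeal fibroblasts, cells of the membranes that cover the brain, had the largest median interaction of the 25 lists. All 13 tested had a positive interaction with an unadjusted p under 0.05 in both fits, where 4.74% and 8.59% of all genes did, and the median was 1.06 (log2) with all 24 libraries and 1.25 without libraries 32 to 36. After adjustment 0 and 1 passed (0% and 0.556% of all genes), and 7 without F1 sGC replicate 4 alone (0.635%). In F1 itself, 12 of the 13 were lower in sGC at an unadjusted p under 0.05 with all 24 libraries (9.3% of all genes) and 5 passed (1.12%). In F3 2 were higher at that level (8.91% of all genes) and 0 passed. The summed level was 180.5 to 477 CPM in the F1 controls and 130.3 to 253 CPM in F1 sGC, and 204 to 320.0 and 213 to 388 CPM in F3, so the groups overlapped in both generations. How much of the membranes stayed on each hippocampus was not tested.

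The 1 member that passed was ALDH1A2, an enzyme that makes retinoic acid. ALDH1A2 stood at 0.837 to 3.28 (median 1.91) CPM in the 6 F1 controls and at 0.799, 0.431, 0.771, 1.78 and 0.808 CPM in F1 sGC replicates 1 to 5. In the 6 F3 controls ALDH1A2 stood at 0.7105 to 1.63 (median 1.12) CPM and in the 7 F3 sGC libraries at 0.713 to 3.01 (median 1.60) CPM. The groups overlapped in both generations, at low levels. The interaction of ALDH1A2 was 1.82 ± 0.47 (SE, log2) with all 24 libraries (adjusted p = 0.21) and 2.23 ± 0.55 without libraries 32 to 36 (adjusted p = 0.049). CRABP2, which carries retinoic acid to the nucleus, had 1.54 ± 0.39 and 1.76 ± 0.46 (adjusted p = 0.21 and 0.055). Of 34 collagens 9 had a positive interaction and 2 a negative one at an unadjusted p under 0.05 with all 24 libraries, where 4.74% and 6.09% of all genes were, and 0 passed. The interaction was 0.68 for COL15A1 and 0.89 for COL1A2 (adjusted p = 0.29 and 0.34).

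GBP5, a guanylate-binding protein that interferon induces, had the smallest interaction p of all genes with all 24 libraries. GBP5 stood at 0.571 to 0.837 (median 0.696) CPM in the 6 F1 controls and at 1.48, 0.646, 0.936, 1.503 and 1.01 CPM in F1 sGC replicates 1 to 5. The 6 F3 controls held GBP5 at 0.947 to 1.53 (median 1.14) CPM and the 7 F3 sGC libraries at 0.591 to 0.847 (median 0.670) CPM. The F3 groups did not overlap, and in F1 sGC replicates 1, 3, 4 and 5 lay above the controls and replicate 2 among them. The interaction of GBP5 was -1.37 ± 0.27 (SE, log2) with all 24 libraries (adjusted p = 0.21) and -1.28 ± 0.31 without libraries 32 to 36 (adjusted p = 0.049). Without F1 sGC replicate 2, GBP5 was the 1 gene that passed among the 24-library leave-outs other than F1 sGC replicate 4. HAS1, a hyaluronan synthase, came next with -0.22 ± 0.05 (adjusted p = 0.21). All 7 F3 sGC values of HAS1 (54.01 to 57.1 CPM) lay below all 6 F3 controls (59.0 to 61.3 CPM). Of all genes 1.84% were lower in F3 sGC without overlap. GBP5 and HAS1 were named for a small interaction p, so nothing is read from their separation in F3. RORA, a nuclear receptor of the circadian clock, had -0.33 ± 0.07 (adjusted p = 0.21): it was higher in F1 sGC by 0.38 ± 0.05 (adjusted p = 0.0012) and differed by 0.05 ± 0.05 in F3 (adjusted p = 0.67).

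The 5 genes with the smallest p and a positive interaction with all 24 libraries were HSPBP1, NDUFA13, DPF1, FDX1 and FEN1, with the same adjusted p of 0.21. HSPBP1, a nucleotide exchange factor of HSP70, had 0.26 ± 0.06, and 0.32 ± 0.06 without libraries 32 to 36 (adjusted p = 0.029). DPF1, a subunit of the neuronal BAF chromatin remodeller, had 0.30 ± 0.07, and FEN1, a flap endonuclease of DNA repair, 0.20 ± 0.05. Both were lower in F1 sGC, with effects of -0.23 and -0.17 (adjusted p = 0.015 and 0.012). In F3 they differed by 0.07 and 0.03 (adjusted p = 0.47 and 0.66).

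Genes that went the same way in both generations could be counted only under other settings than the main one. With all 24 libraries 0 genes passed in both generations (edgeR, 601 at an unadjusted p under 0.05 with the same sign), the likelihood ratio test gave 18, DESeq2 72, and fits of each generation alone 10. DESeq2 called 1 gene, HAS1, in both with opposite signs, and the other fits of the 24 libraries named here 0. APC, which holds beta-catenin in check, DEF8, ST3GAL5, VTI1A and ZBTB44 were called with the same sign in 5 fits: the likelihood ratio test, DESeq2, each generation alone, all 36 RNA libraries, and without F1 sGC replicate 4. Without libraries 32 to 36 the count with the same sign was 1 in the main test, DEF8, and 0 in fits of each generation alone. The likelihood ratio test and DESeq2 called more genes without those libraries. Both called APC, DEF8, VTI1A and ZBTB44 with the same sign, and neither called ST3GAL5.

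Ranked by the larger of the 2 unadjusted p, the same-sign genes were SEPT11, DENND4A, DEF8, VTI1A, ST3GAL5, ZBTB44, SMPD1, DDX1, FRS2 and STIP1. DEF8, a regulator of lysosome position, SEPT11, DDX1 and ST3GAL5 had no overlap between sGC and control in either generation, where 0.113% of all genes had none; these 10 were chosen for a small p in both generations, so nothing is read from that count. DEF8 stood at 167 to 179 (median 173.2) CPM in the 6 F1 controls and at 193, 198, 191.5, 214 and 212 CPM in F1 sGC replicates 1 to 5. DEF8 stood in F3 at 174 to 182 (median 176) CPM in the 6 controls and at 186 to 201 (median 195.5) CPM in the 7 sGC libraries. The effect was 0.22 ± 0.03 in F1 (adjusted p = 0.0023) and 0.13 ± 0.03 in F3 (adjusted p = 0.087) with all 24 libraries, and 0.16 ± 0.03 and 0.13 ± 0.03 without libraries 32 to 36 (adjusted p = 0.050 and 0.027).

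VTI1A, a SNARE of the Golgi, had effects of 0.27 in F1 and 0.17 in F3, and ZBTB44, a zinc finger protein, 0.23 and 0.15. SEPT11, a septin of the cytoskeleton, had 0.19 and 0.19, DENND4A 0.24 and 0.19, and FRS2, an adaptor of growth factor receptors, 0.21 and 0.17. ST3GAL5, which makes the ganglioside GM3, SMPD1, the lysosomal acid sphingomyelinase, DDX1, an RNA helicase, and STIP1, a co-chaperone of HSP90, were lower in sGC. Their effects were -0.18, -0.13, -0.17 and -0.14 in F1 and -0.14, -0.12, -0.18 and -0.14 in F3. For all 10 genes the adjusted p was 0.0023 to 0.041 in F1 and 0.083 to 0.087 in F3, so that F1 passed and F3 did not.

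Ranked in the same way, the opposite-sign genes were GBP5, HAS1, NDUFA13, ZDHHC17, HSPBP1, ZNF804A, TRIM23, NENF, TPGS2 and GFM2. Of these NDUFA13, HSPBP1 and NENF, a secreted neurotrophic factor, were lower in F1 sGC and higher in F3 sGC, and the other 7 the reverse. NENF had effects of -0.16 in F1 and 0.14 in F3, ZDHHC17, a palmitoyltransferase, 0.14 and -0.12, and TRIM23, a ubiquitin ligase, 0.10 and -0.09. TPGS2 had 0.11 and -0.10, and GFM2, a translation factor of mitochondria, 0.12 and -0.12. None of the 10 passed in either generation with all 24 libraries (edgeR). Without F1 sGC replicate 4, ZNF804A passed in both with opposite signs (edgeR, adjusted p = 0.026 in F1 and 0.047 in F3). Without libraries 32 to 36, the likelihood ratio test and DESeq2 both called ZNF804A and NDUFA13 in both generations with opposite signs. Both tests also called GAD2, MAP9, RPL36 and RPS15 so. For the interaction itself, GBP5, NDUFA13, HSPBP1, ZNF804A and TRIM23 passed without libraries 32 to 36.

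All 11 astrocyte markers had a positive effect in both generations with all 24 libraries, with medians of 0.25 in F1 and 0.18 in F3 (log2). As higher in sGC 2 of them passed in F1 (3.04% of all genes) and 0 in F3 (0.0174%). With the 4 libraries left out the medians were 0.07 and 0.18, and 0 and 1 passed (0.356% and 1.51%). The summed level in F1 sGC was 11125, 12555 and 12306 CPM in replicates 1 to 3, 17809.6 in replicate 4 and 14629 in replicate 5, against 9861 to 12802 CPM in the controls. The interaction of the list had a median of -0.08 with all 24 and 0.08 without the 4 libraries, and 0 of 11 had an unadjusted p under 0.05 in either fit. SLC1A2, the main glutamate transporter of astrocytes, had -0.21 (adjusted p = 0.61) and Slc4a4, a bicarbonate transporter, -0.24 (adjusted p = 0.51).

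Other cell types were followed by their marker lists. Microglia markers (9 counted) had a median interaction of 0.00 with all 24 libraries and 0.20 without libraries 32 to 36, endothelial markers (13) -0.06 and 0.05, and oligodendrocyte markers (11) 0.19 and 0.06. The summed microglia level was 356 CPM in F1 sGC replicate 4 and 252 to 281 CPM in the other 4 F1 sGC libraries. In these 3 lists 0 genes passed for the interaction in either fit (edgeR), and 0, 1 and 1 had an unadjusted p under 0.05 with all 24 libraries and 1, 2 and 0 without libraries 32 to 36, where 10.8% and 17.8% of all genes had. The genes of each list with the smallest p were TYROBP and CTSS, Abcb1 and SLC2A1, and MOG and OPALIN, with interactions of 0.21, -0.17, -0.52, -0.13, 0.42 and 0.27 and adjusted p of 0.34 to 0.77.

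Markers of hippocampal neurons had a median interaction of 0.01, with 0 of 15 at an unadjusted p under 0.05 with all 24 libraries. PROX1, which marks dentate granule cells, stood at 103 ± 8.22 CPM (SD, n = 6) in F1 control and 117 ± 9.88 CPM (n = 5) in F1 sGC, with an interaction of -0.15, and MPPED1 had 0.17. Markers of striatal and thalamic neurons, which a wide dissection would add, had a median of 0.08 over 8 genes, with 0.17 for PPP1R1B and -0.17 for PDE10A. Of the choroid plexus list 2 genes were tested, FOLR1 and KL, with 0.46 and 0.19, and of the blood list 1, ALAS2, with 0.71. The other members of those 2 lists were not among the genes tested. None of these passed in either fit.

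The remaining lists held 0 genes past adjustment in either fit (edgeR). At an unadjusted p under 0.05 the share of all genes was 4.74% positive and 6.09% negative with all 24 libraries, and 8.59% and 9.21% without libraries 32 to 36. Immediate early genes, switched on by neuronal activity, had 1 of 16 at that level in each fit, positive, and a median of 0.13 with all 24 libraries, with 0.50 for BTG2 and 0.22 for NR4A2. Stress neuropeptides and their receptors had 4 positive and 1 negative of 14 at that level with all 24 and 2 positive without the 4 libraries. TAC1, the substance P precursor, was lower in F1 sGC, a log2 effect of -0.45 ± 0.10 (adjusted p = 0.014), with an interaction of 0.38, and CCK had 0.28. DNA methylation genes had 2 of 13 at that level in each fit, all positive, and with all 24 these were GADD45B at 0.22 and MBD3 at 0.17. Clock genes had 1 negative of 17, RORA, with all 24 and 2 positive and 1 negative without the 4 libraries, with -0.09 for NR1D2, the heme receptor that represses clock genes. Proteasome subunits had 2 and 5 of 37, all positive, with PSME1 at 0.17 and PSMB3 at 0.12 with all 24.

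**Figure D5:**
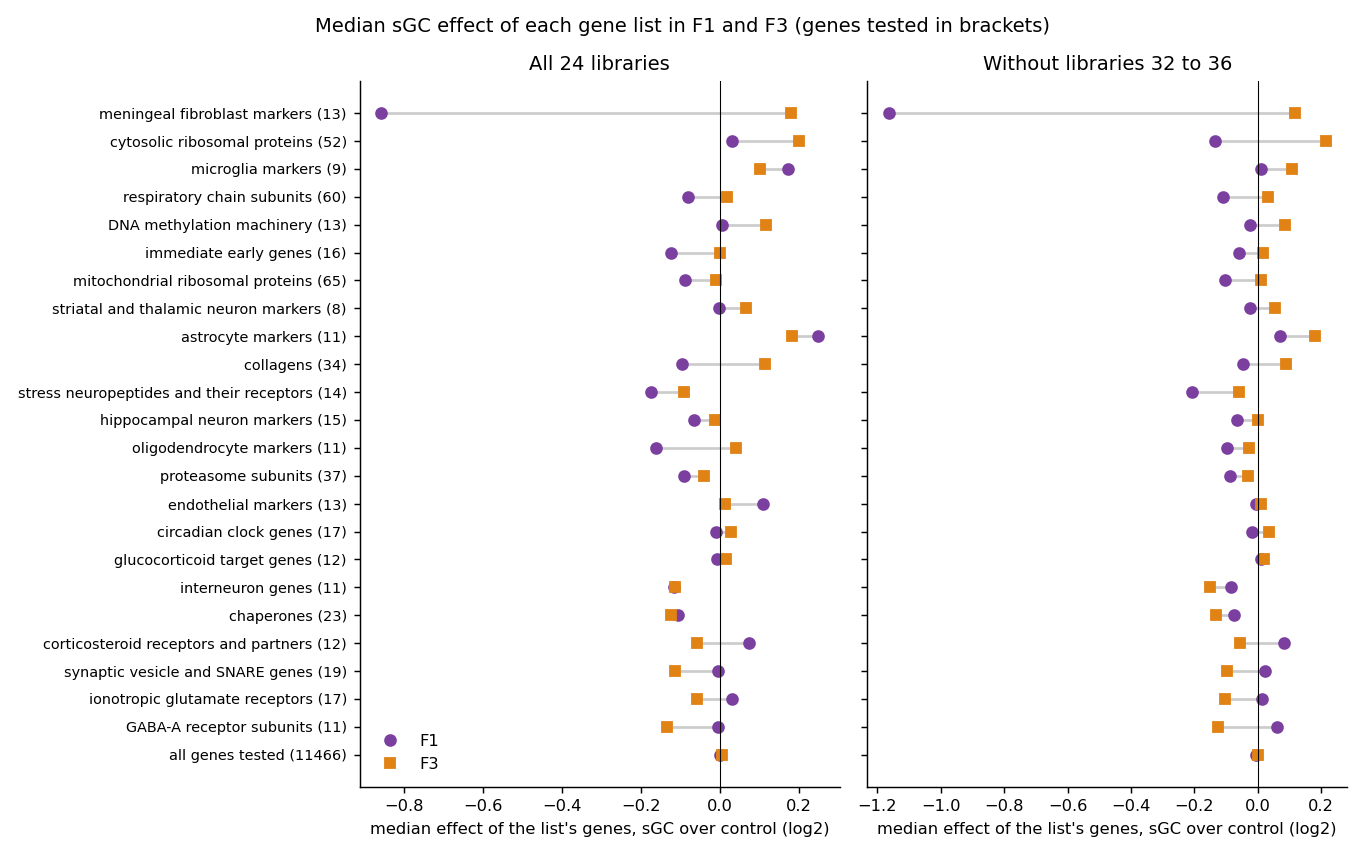
Median sGC effect (log2) in F1 (circles) and F3 (squares) of the gene lists with at least 5 genes tested, with all 24 libraries at left and without libraries 32 to 36 at right; the panels have separate horizontal scales. The cytosolic ribosomal list lies at -0.14 in F1 and 0.21 in F3 in the right panel, and the astrocyte list at 0.25 and 0.18 in the left one.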

How the data were processed

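Hippocampal mRNA of 24 female guinea pigs (TruSeq V2 libraries, read on an Illumina HiSeq) was analysed from 2 gene tables, 1 for F1 (11651 genes) and 1 for F3 (11663 genes), which share 11605 genes. Per the labels reads were aligned with TopHat2, and the submitters' processing notes also name Trimmomatic 0.32, edgeR and R 3.2.3. The counter, annotation and use of strand are not given in the sources used here. The deposited values are whole numbers but are treated here like expected counts, since the authors had adjusted them: a fixed weighted sum of log counts in each table shows that 1 factor was removed per generation, by a method not given for these tables in the sources used here. The test had been chosen for raw counts and was kept, with no rounding needed; it counts 20 residual degrees of freedom where 18 remain, so its p-values are somewhat too small. The deposited tables also hold the authors' own edgeR comparison (dispersion, log fold change, log CPM, likelihood ratio, p and adjusted p), which was not used, and the methylation tables were not used.

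Groups came from the labels. Genes were filtered with edgeR's filterByExpr, scaled by TMM and fitted with 4 group means in edgeR 4.0.16 (R 4.3.3) by quasi-likelihood tests, with Benjamini-Hochberg adjustment over all genes tested and a threshold of 0.05. An effect is the log2 ratio of sGC to control, the interaction the F3 effect minus the F1 effect, and CPM are counts scaled to a library total after TMM. Alternatives used the likelihood ratio test, DESeq2 1.42.0, limma 3.58.1, other scaling and filters, other sets of libraries, and terms for libraries 32 to 36 or the fixed sums. The code was tested on simulated data. Same-numbered sGC and control libraries were checked for pairing. Deviations of 2 of the 11 pairs were correlated over 0.1, and none were paired. P-values measure the spread between the libraries of these animals that was left after 1 factor had been removed per generation, not the full spread between animals.

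The comparison, its gene lists and the libraries left out were chosen with earlier results of these data known. Single members of 2 lists are not reported here and were left out of those lists' values. The text names the 5 genes with the smallest p in each direction, the 2 of each list, and NR3C1, NR3C2 and FKBP5. Chosen after their values were seen were the 10 with the smallest p in each direction without libraries 32 to 36, the 10 same-sign and 10 opposite-sign genes, and the genes called in 5 fits or in counts of 5 or fewer.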

Additional observations from a re-analysis of the deposited data

Results flagged for a closer look

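In 25 of 344 groups of libraries (86 named genes in 4 groups), 1 library stood far from the others of its group by Dixon's criterion, which chance alone does in about 1 group of 20. F1 sGC replicate 4 stood apart for TYROBP (22 CPM), CTSS (7.11 CPM), ALDH1A2 (1.78 CPM), HSPA4L (138 CPM), RPL18 (127 CPM), RPL28 (115 CPM), UBQLN2 (134 CPM) and SEPT11 (164 CPM). F1 control replicate 2 stood apart for CRABP2 (8.27 CPM) and MRPS21 (101 CPM). F1 control replicate 5 stood apart for CCK (78.5 CPM) and KL (28.9 CPM). F1 control replicate 6 stood apart for RPS15 (170.2 CPM), RPS9 (168 CPM) and RPL7A (316 CPM). F1 sGC replicate 1 stood apart for DNAJC7 (742 CPM). F3 control replicate 5 stood apart for Rps7 (234 CPM), RPL28 (58.9 CPM) and Sepw1 (362 CPM). F3 sGC replicate 3 stood apart for NR3C1 (93.2 CPM), FRS2 (39.0 CPM) and STIP1 (204 CPM). F3 sGC replicate 4 stood apart for FKBP5 (7.91 CPM), UBQLN2 (146.2 CPM) and TPGS2 (122 CPM).

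For 27 named genes the sGC effect differed between F3 and F1 by the test of the interaction without libraries 32 to 36, at an adjusted p under 0.05 (edgeR). The difference was positive for ALDH1A2 (2.23), MRPL27 (0.515), NDUFC1 (0.513), RPL28 (0.51), RPL36 (0.445), RPS15 (0.429), RPL18 (0.422), Sepw1 (0.382), RPS9 (0.38), Rps7 (0.37), RPL7A (0.344), NDUFA13 (0.335) and HSPBP1 (0.319), and negative for GBP5 (-1.28), CNR1 (-0.613), ZNF804A (-0.428), PPFIA2 (-0.408), GAD2 (-0.399), MAP9 (-0.349), NEFH (-0.345), CADPS (-0.335), SYT1 (-0.313), KCNJ3 (-0.293), UBQLN2 (-0.282), NR3C2 (-0.275), HSPA4L (-0.236) and TRIM23 (-0.227), in log2 units. None of these passed with all 24 libraries (edgeR, smallest adjusted p 0.21), and these genes were named partly for this difference.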

How the results depend on the processing

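The counts of genes past adjustment depended on the libraries and the test more than on scaling or the filter. DESeq2's size factors in edgeR's test and no filter left every count within 1.5 times. With all 24 libraries the likelihood ratio test called 168 genes in F3 and 18 with the same sign in both. DESeq2 called 11 for the interaction, 6 of them with opposite effects at an unadjusted p under 0.05, 810 in F1, 477 in F3, 72 with the same sign and 1 with opposite signs. Without libraries 32 to 36 the counts were 114 for the interaction, 73 of them with opposite effects, 49 in F1, 363 in F3 and 1 with the same sign, and with a term for those libraries 64 in F1 and 0 in F3. A fit of all 36 RNA libraries called 852 in F1, 334 in F3 and 48 with the same sign, and each generation alone 240, 574 and 10. Terms for the fixed sums gave 206 in F1 and 0 in F3, the same with limma 205 and 0, and leaving out F1 control replicate 6 and F3 sGC replicate 5 together 222 and 0, so the F1 count of 476 fell by over 1.5 times when the fixed sums were allowed for. Leaving out 1 library gave 0 to 160 genes for the interaction, 0 to 85 of them with opposite effects, 176 to 706 in F1, 0 to 655 in F3, 0 to 17 with the same sign and 0 to 1 with opposite signs.

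In the 20 libraries other than 32 to 36, the likelihood ratio test called 364 for the interaction, with 7 of the same sign and 7 of opposite signs in both generations. It called 2.42% of the tested genes in F1, against 0.426% in the quasi-likelihood test, and 1.31% passed for the interaction with opposite effects, against 0.634%. DESeq2 called 528, 21 and 8, with 755 in F3, and its percentages were 2.81% and 1.49%. Each generation alone gave 0.846% in F1 and 0 with the same sign. Leaving out 1 of these 20 gave 0 to 365 for the interaction, 0% to 1.7% with opposite effects, 0% to 1.24% in F1, 80 to 425 in F3, 0 to 5 with the same sign and 0 to 2 with opposite signs. These fits of 20 libraries, other than the count itself, and those with terms for the fixed sums were chosen after seeing the data. The cause of these shifts was not tested.

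With a replicate block the counts were 80 in F1 and 0 in F3 with all 24 libraries, and in the 20 libraries 1 for the interaction, 0.00869% with opposite effects, 0.0348% in F1, 8 in F3 and 0 with the same sign. The 11 same-numbered pairs had correlations of deviations from -0.292 to 0.295, and 2 were over 0.1 (0.295 and 0.181, both in F1). The libraries are known to share only a number. No named gene changed the sign of a called value in any setting. The counts of residual degrees of freedom and of animals limit what F1 can show, with 5 sGC libraries and 3 once libraries 32 to 36 are left out.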
